A study of Mus musculus with 12 samples.

Results

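The genes described here are 35 named genes of the integrated stress response and the unfolded protein response, measured by RNA sequencing in mouse embryonic fibroblasts. They were taken as a fixed list of symbols and looked up in both deposited gene count tables, and all 35 were found among 37287 gene IDs. By role they fall into 7 regulators of the stress response (Atf3, Atf4, Atf5, Ddit3, Nupr1, Ppp1r15a, Vldlr) and 4 genes of the Atf4 amino-acid arm (Trib3, Chac1, Asns, Psat1). The others are 6 enzymes of serine, one-carbon and proline metabolism (Phgdh, Psph, Shmt2, Mthfd2, Aldh18a1, Pck2), 3 amino acid transporters (Slc7a11, Slc7a5, Slc3a2) and 15 genes of the endoplasmic reticulum (ER) chaperone arm.

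All cells were MyoD-/-; Myf5-/- fibroblasts, so the controls also lacked both myogenic factors. Each culture except the untransduced one received a lentivirus in medium with polybrene, and all are described as differentiated, with a change after 24 h to differentiation medium and harvest 20 h later. The first table holds 5 GFP libraries, of which 4 form a series at a multiplicity of infection (MOI) of 15, 30, 60 and 120 and 1 is a 1x dose, together with MyoD at 1x and 2x, Myf5 at 1x and 2x, and 1 untransduced library. The second table holds 1 library of a lenti-Chimera, which the labels do not describe further, and 1 library of MyoD from a second batch of virus that was balanced against the Chimera. The study set MyoD beside Myf5 in cells that had neither. Nothing in the labels says that libraries of a group came from separate embryos or cultures, so the p-values measure only the spread between these libraries. The GFP, MyoD and Myf5 libraries differ in virus dose within their group, so where they are taken as 1 group that spread includes any effect of dose.

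In the integrated stress response, kinases that sense amino acid shortage, viral RNA, lack of haem or misfolded protein in the ER phosphorylate the translation factor eIF2, which lowers protein synthesis while the mRNA of the transcription factor Atf4 is translated more. Atf4 then raises genes that import and make amino acids and charge tRNAs. The unfolded protein response is a second set of signals from the ER, in which Atf6 and spliced Xbp1 raise chaperones such as Hspa5 (BiP) and the enzymes that fold or degrade proteins in the ER. Ddit3 (CHOP) and Trib3 lie downstream of both systems.

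Library depth was 17.9 to 22.4 M counts (M, mega) in the MOI series, 68.3 to 81.5 M in the other libraries of the first table, and 25.1 and 23.7 M in the second. Myod1 was at 309 and 617 CPM (a gene's counts per M counts of its library) with 1x and 2x MyoD against 5.21 to 5.99 CPM in the other libraries of the first table, and Myf5 was at 150 and 249 CPM with Myf5 virus against 11.9 to 24.4 CPM. All 10 fibroblast markers were detected in every library, with a summed level of 20200 to 21600 CPM in GFP and untransduced libraries, 15500 and 11400 CPM with 1x and 2x MyoD, and 17700 and 14700 CPM with 1x and 2x Myf5. The summed level of 8 muscle markers was 2.23 to 3.52 CPM without a factor, 776 and 2510 CPM with MyoD and 28.3 and 108 CPM with Myf5. Summed markers of macrophages lay between 11.2 and 19.3 CPM, with Adgre1 at 0 in every library and Ptprc at 0.0894 CPM or less. Those of endothelial and epithelial cells stayed at 2.58 CPM or less. Because muscle and fibroblast markers moved together with the factor, a change of any gene below in these bulk libraries cannot be told apart from a change in the share of cells. Their part in the results was not tested.

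Promoters of 19 members hold at least 1 of 3 sequence elements by which these pathways are known to act, and 7 stretches are printed so that members with and without a match can be seen side by side. Windows from 250 bases before to 50 bases after the transcript start were taken from RefSeq (GRCm38.p6, another build than the mm9 alignments of the counts) for 33 of the 35 members, 36 windows in all. The search covered both strands for 3 motifs: the core of the C/EBP-ATF response element that Atf4 binds, TGATGNAA, the ER stress response element, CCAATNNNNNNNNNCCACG, and the cAMP response element core TGACGT. In the stretches below, written 5′ to 3′ on the strand of the gene, capitals mark a match on either strand.

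The amino-acid arm is shown first, because 3 of its 4 genes hold an Atf4-type core. The stretch of Asns is chr6:7693210-7693262 on the minus strand and that of Chac1 is chr2:119351019-119351086 on the plus strand. The stretch of Trib3 is chr2:152344028-152344057 on the minus strand, inside the first transcribed bases, and that of Psat1, with no match in its windows, is chr19:15925060-15925139 on the minus strand.
Asns: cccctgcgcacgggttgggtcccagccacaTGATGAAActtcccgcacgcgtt
Chac1: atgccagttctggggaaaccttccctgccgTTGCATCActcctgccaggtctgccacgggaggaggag
Trib3: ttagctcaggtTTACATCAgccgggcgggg
Psat1: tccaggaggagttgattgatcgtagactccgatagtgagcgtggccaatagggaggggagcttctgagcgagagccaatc

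Of the ER arm, the 3 genes with an ER stress element and the smallest p in MyoD against GFP are shown. They are Pdia6 (chr12:17266461-17266539, plus strand), Hspa5 (chr2:34771995-34772073, plus strand) and Hsp90b1 (chr10:86705503-86705686, minus strand), and Hsp90b1 has the element on each strand.
Pdia6: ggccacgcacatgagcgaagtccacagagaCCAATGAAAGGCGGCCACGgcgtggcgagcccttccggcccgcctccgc
Hspa5: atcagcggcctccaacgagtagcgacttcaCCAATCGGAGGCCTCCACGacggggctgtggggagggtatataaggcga
Hsp90b1: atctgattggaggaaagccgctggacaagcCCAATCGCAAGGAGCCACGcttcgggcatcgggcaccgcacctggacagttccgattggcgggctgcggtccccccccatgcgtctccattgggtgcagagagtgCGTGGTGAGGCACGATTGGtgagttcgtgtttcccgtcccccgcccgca

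The ER stress element occurred in 0.119% of all 32851 RefSeq mouse promoter windows, 39 in number, and in 7 of the 14 ER arm genes with a window. Beside the 3 genes printed, these are Dnajc3, Calr, Canx and Creld2, and no window of the other roles held it. The Atf4-type core occurred in 3.97% of all windows and in 9 members: Trib3, Chac1 and Asns, the regulators Atf3, Nupr1 and Vldlr, the transporter Slc7a11 with a pair of matches, the enzyme Pck2 and, in the ER arm, Herpud1. The cAMP core occurred in 7.51% of windows and in 6 members, among them Atf3 and Ppp1r15a. A match describes the letters only.

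**Figure D1:**
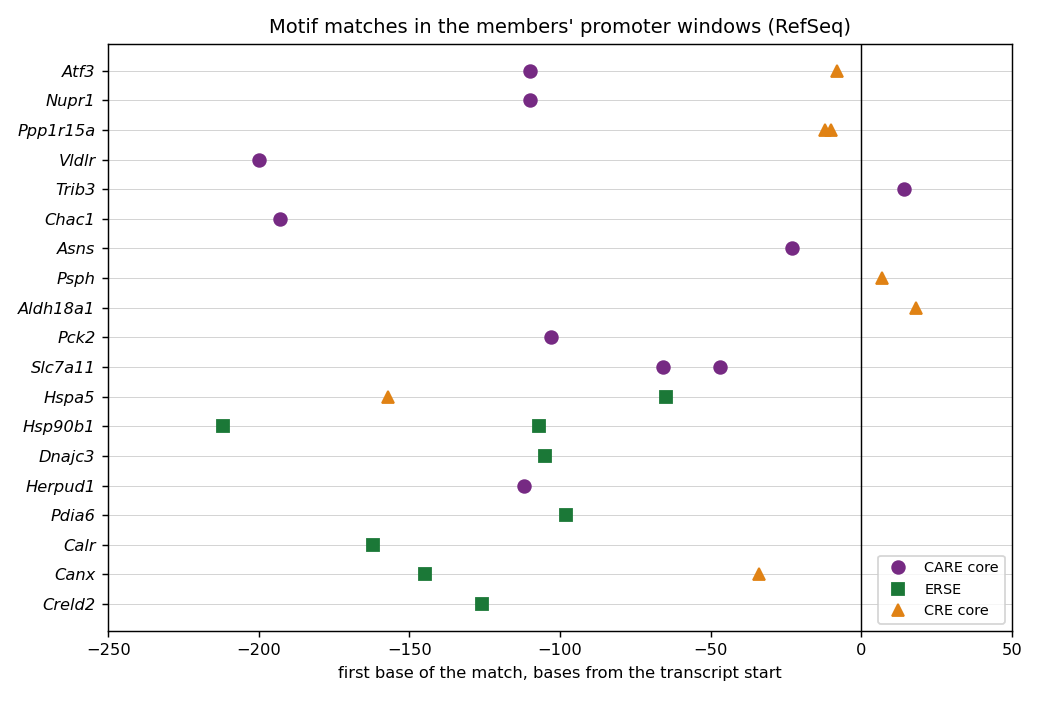
Positions of motif matches in the members' promoter windows, in bases from the transcript start on the horizontal axis, with 1 row a gene and 1 symbol a motif (circle, Atf4-type core; square, ER stress element; triangle, cAMP core). Squares appear only in rows of the ER arm, while circles lie mainly in the regulators, the amino-acid arm and the transporter Slc7a11.

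Differential expression was tested with edgeR's quasi-likelihood F test over 13825 genes, all 35 members included, and a gene was called at a Benjamini-Hochberg adjusted p under 0.05. Log2 fold changes are given ± SE from that fit, and the direction is always the first group over the second. With MyoD, 16 members were lower and 2 higher than in the 5 GFP libraries, where 20.9% of all genes tested were lower and 21.4% higher, and the members' median log2 fold change was -0.35 against -0.03 over all genes. Without the 2x MyoD library, which left 1 MyoD library, fewer members and fewer of all genes were called against GFP and against 1x GFP. The 2 higher members, Psat1 and Edem1, were reduced to 1 or 0 by leaving out any single library other than 1x GFP. Against the 1x GFP library alone, 21 were lower and none higher, with 15.4% and 15.1% of all genes, and a median of -0.42. With Myf5, 3 members were lower than in GFP and none higher, against 2.29% and 3.81% of all genes.

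The Myf5 count depended on single libraries, being 0 when any 1 of the 4 MOI libraries was left out. In those fits 38 to 87 of all genes were lower, where the full fit had 316 of 13825. The fall to 0 is therefore not read as particular to the members. The count of members was 10 without 1x GFP, where 2551 of 13804 genes were lower. Calls were also lost when either Myf5 library was left out, which left 1 Myf5 library. Against 1x GFP alone no member was called with Myf5 (0.152% of all genes lower, 1.03% higher), although 16 had an unadjusted p under 0.05, DESeq2 called 9 lower, and edgeR called 8 lower when either MyoD library was left out of the fit. Over all genes 2410 of 13825 had such a p, and DESeq2 called 204 lower. The fits without a MyoD library called more of all genes lower too, so 0.152% does not serve as background for the 9 and 8. Between MyoD and Myf5 no member was called (1.29% of all genes lower, 4.21% higher). An unadjusted p under 0.05 was found for 6 members and for 3378 of 13825 genes. DESeq2 called 3 lower, where 587 of 13825 genes were, and edgeR called 5 lower without 1x GFP, where 1076 of 13804 genes were. More members and more of all genes were also called lower without 1x MyoD, which left 1 MyoD library. The log2 fold change of MyoD over Myf5 was negative for 33 of 35 members, with a median of -0.19. Over all genes 48.9% were above 0, and the median was -0.0074.

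The untransduced library was lower than the GFP group in 5 members and higher in 2, against 2.52% and 5.83% of all genes, and these counts became 11 and 5 without 1x GFP. Without the MOI 15, 30 or 60 library they were 3 and 1, and without either Myf5 library the lower count was 3. The shares of all genes called against GFP also rose in both directions without 1x GFP and fell without the MOI and Myf5 libraries named. The 2.52% and 5.83% therefore do not serve as background for those counts. Against 1x GFP there is 1 library on each side, and the spread came from the other groups, whose libraries differ in virus dose. That fit called 8 members lower and 3 higher (1.57% and 3.37% of all genes), with 5 lower without MOI 30 and 14 without either MyoD library. Values of this pair are therefore given below with no call.

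Along the MOI series 14 members fell and 2 rose per doubling of virus, where 3.42% of 13383 genes fell and 4.06% rose. Each MOI has 1 library. The p of a slope therefore measures departures from a straight line on log2 MOI, not the spread between cultures at the same MOI. Without the MOI 120 library 7 fell and 1 rose, where 113 of 13295 genes fell and 225 rose. The series as a whole was lower than 1x GFP in 11 members and higher in 2 (12.2% and 12.1% of all genes). The lower count was 5, 4 and 6 without MOI 30, 60 and 120 and 7 without either Myf5 library, and 1 was higher without any of those 3 MOI libraries. Fewer of all genes were called in those fits too, so 12.2% and 12.1% do not serve as their background. The series and the 1x library differ in depth as well as in virus, and these cannot be told apart. A common effect of the 2x over the 1x dose of MyoD and Myf5 was called for none of the members (3.34% of all genes lower, 4.03% higher). An unadjusted p under 0.05 was found for 7 members and for 3441 of 13825 genes. DESeq2 called 1 member and 629 of 13825 genes lower, where the edgeR count of members was 0. That count was 1 without MOI 120, where 630 of 13772 genes were lower. More members and more of all genes were also lower without either Myf5 library, which left 1 Myf5 library.

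The plot of changes with MyoD sets both GFP controls beside each other. Called lower against both were 12 members: Atf5, Ddit3, Nupr1, Trib3, Chac1, Slc7a11, Xbp1, Hspa5, Herpud1, Sel1l, Pdia4 and Pdia6. Of all genes 10.0% were lower against both. Without the 2x MyoD library the 12 became 5 (Ddit3, Nupr1, Slc7a11, Hspa5 and Pdia6), and without the filter on low counts 7. No share of all genes lower against both is given for these refits. Fewer of all genes were lower against each control in them, so the falls are not read as particular to the members. The comparisons share their MyoD libraries. Of the 6 enzymes of serine, one-carbon and proline metabolism, 5 were called lower against 1x GFP and none against the 5 GFP libraries. Hsp90b1, Dnajb9, Dnajc3 and Calr were called lower against the 5 libraries and not against 1x GFP. For 6 members the sign itself depended on the control: Ppp1r15a, Vldlr, Slc7a5, Sdf2l1, Creld2 and Manf.

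**Figure D2:**
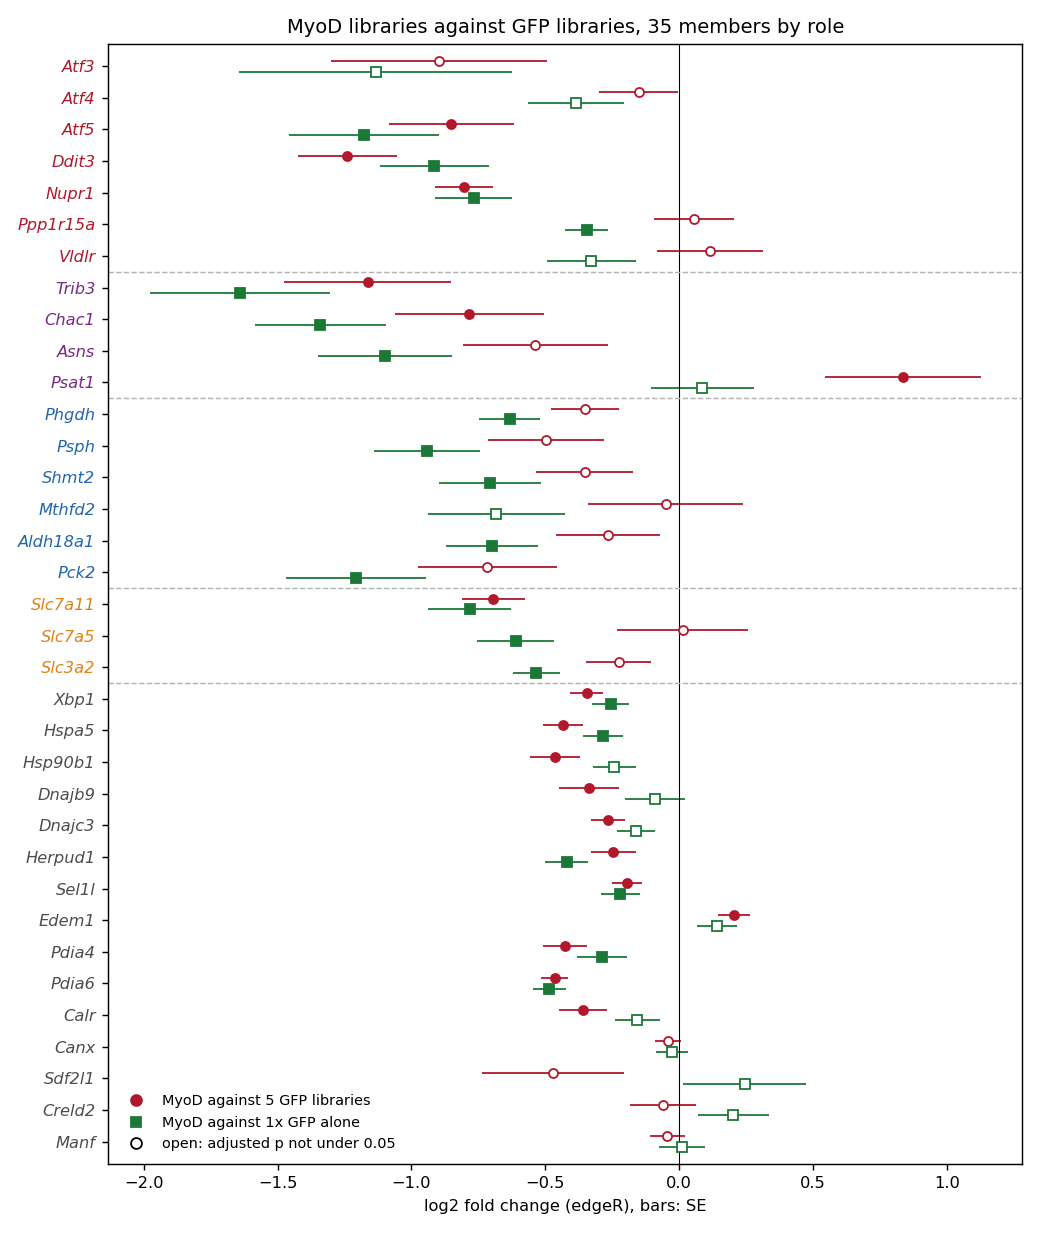
Log2 fold change with SE (edgeR) of the 35 members, grouped by role, in the 2 MyoD libraries against all 5 GFP libraries (circles) and against 1x GFP alone (squares). Filled symbols passed an adjusted p under 0.05, and most lie left of 0, with Psat1 and Edem1 to the right against the 5 libraries.

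Among the regulators, Ddit3 and Atf3 rose with the dose of GFP virus while Atf4 and Atf5 fell. Ddit3, the transcription factor CHOP that acts late in prolonged stress, was at 88.8, 98.9, 104 and 126 CPM at MOI 15, 30, 60 and 120. It was at 76.2 CPM with 1x GFP and 38.9 CPM without virus, at 57.8 and 68.1 CPM with 1x and 2x Myf5, and at 46.0 and 34.6 CPM with 1x and 2x MyoD. All 5 GFP libraries lay above both Myf5 libraries, and these lay above both MyoD libraries. The slope was 0.16 ± 0.02 in log2 units per doubling of MOI (edgeR, adjusted p = 7.14e-05), an increase of 11.7%. With MyoD Ddit3 was lower than in GFP by 1.24 ± 0.18 in log2 units (a log2 fold change of -1.24, edgeR adjusted p = 0.00125) and lower than in 1x GFP (-0.91 ± 0.20, edgeR adjusted p = 0.0133). The untransduced library was lower than GFP as well (-1.29 ± 0.25, edgeR adjusted p = 0.0168).

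Atf3, an early stress-induced transcription factor, was at 1.87, 1.90, 3.04 and 4.69 CPM along the series, which are 37, 34, 68 and 94 counts, and its slope was 0.49 ± 0.10 (edgeR adjusted p = 0.00341). It was at 3.46 CPM with 1x GFP and at 0.756 CPM without virus. The call of this slope was lost without the MOI 120 library (adjusted p = 0.368) and with DESeq2. Differences of Atf3 in the other comparisons did not pass, at adjusted p between 0.0753 and 0.724 in the same edgeR fits.

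Atf4, the central transcription factor of the response, ran the other way, at 384, 346, 312 and 262 CPM as the MOI increased. It was at 386 CPM with 1x GFP, 250 CPM without virus, 308 and 279 CPM with 1x and 2x MyoD and 319 and 293 CPM with 1x and 2x Myf5. The slope was -0.18 ± 0.02 (edgeR adjusted p = 2.38e-06), a fall of 11.7% per doubling, while the value with MyoD, -0.15 ± 0.15 against GFP, did not pass (adjusted p = 0.431 by edgeR). The MyoD libraries lay inside the GFP range. These are mRNA levels, and Atf4 protein was not measured.

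Atf5, an Atf4-like factor that is also controlled by translation, was at 290, 253, 224 and 202 CPM along the series and at 312 CPM with 1x GFP. It was at 175 and 101 CPM with 1x and 2x MyoD, 204 and 171 CPM with 1x and 2x Myf5 and 121 CPM without virus. Both MyoD libraries lay below all 5 GFP libraries (-0.85 ± 0.23, edgeR adjusted p = 0.0183), and the call was lost without the 2x library, where the log2 fold change was -0.52 with an adjusted p of 0.186.

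Nupr1, a small stress-induced nuclear protein, showed no slope that passed. It ranged from 57.9 to 67.9 CPM over the 5 GFP libraries and was at 47.6 and 44.9 CPM with 1x and 2x Myf5, 39.2 and 29.4 CPM with 1x and 2x MyoD and 30.5 CPM without virus. The GFP, Myf5 and MyoD libraries did not overlap, and the untransduced library lay within the MyoD range. Nupr1 was lower with MyoD than in GFP (-0.80 ± 0.11, edgeR adjusted p = 0.000763) and lower in the untransduced library (-0.98 ± 0.15, edgeR adjusted p = 0.00498), and both calls held in all 9 fits that left out 1 library. Myf5 against GFP gave -0.39 ± 0.10, with an edgeR adjusted p of 0.0591.

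Ppp1r15a (GADD34), the phosphatase subunit that reverses eIF2 phosphorylation, stood out in 1x GFP. That library was at 30.1 CPM, against 21.1 to 23.0 CPM in the MOI series, 22.8 to 28.8 CPM with the factors and 17.9 CPM without virus. Against 1x GFP it was lower in the MOI series (-0.53 ± 0.07, edgeR adjusted p = 0.00285). Vldlr, a lipoprotein receptor raised by Atf4 under stress, was likewise highest in 1x GFP, at 10.5 CPM, and lowest without virus, at 4.29 CPM. In all, 4 of 7 regulators were lower with MyoD than in 1x GFP (15.4% of all genes), and 3 of 7 than in the 5 GFP libraries (20.9% of all genes).

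The GFP series plot shows the members' levels relative to the lowest MOI. Of the ER arm none of 15 slopes passed by edgeR or DESeq2. An unadjusted p under 0.05 was found for 3 of them and for 2679 of 13383 genes. In contrast, all 4 genes of the amino-acid arm and all 6 enzymes fell. The background over all genes was 3.42% falling.

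**Figure D3:**
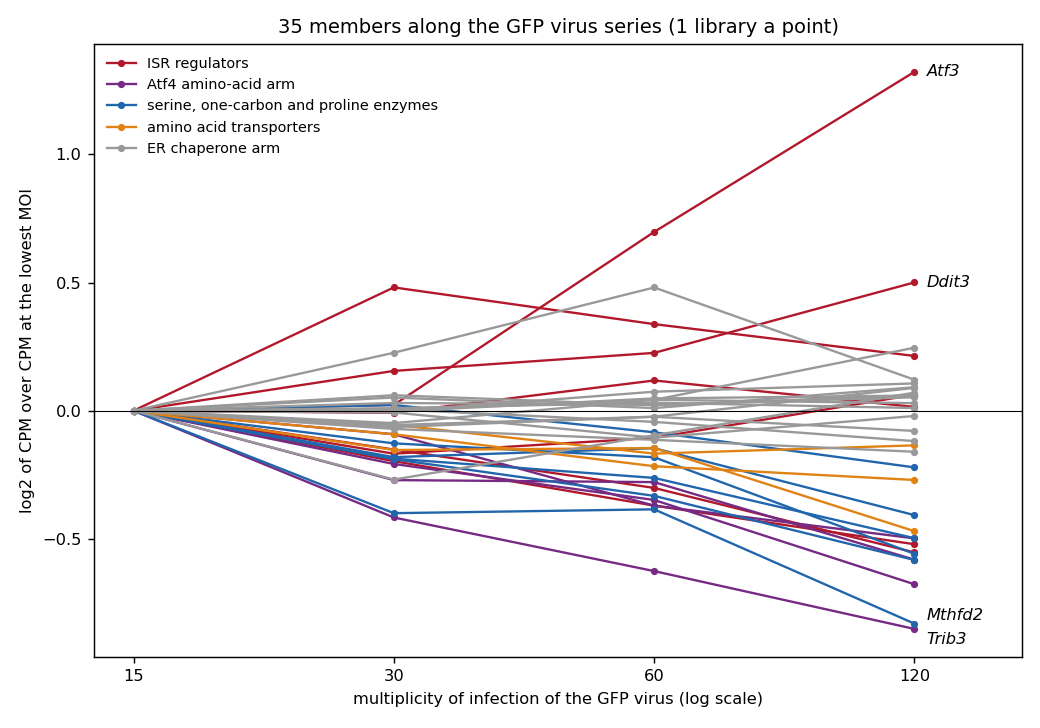
Log2 ratio of each member's CPM to its CPM at MOI 15, plotted against MOI on a log scale, with 1 line a gene coloured by role and 1 library a point. Atf3 and Ddit3 end highest and Trib3 and Mthfd2 lowest, with the ER arm lines near 0.

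In the amino-acid arm, Trib3, Chac1 and Asns shared 1 pattern and Psat1 had another. Trib3, a pseudokinase that Ddit3 and Atf4 induce and that feeds back on Atf4, was at 32.2, 24.1, 20.9 and 17.8 CPM along the series and at 35.6 CPM with 1x GFP. It was at 14.5 and 8.25 CPM with 1x and 2x MyoD, at 17.2 and 14.9 CPM with 1x and 2x Myf5 and at 7.05 CPM without virus. The MyoD, Myf5 and untransduced libraries all lay below every GFP library. The slope was -0.28 ± 0.03 (edgeR adjusted p = 3.42e-05), a fall of 17.7% per doubling and the steepest fall among the members. MyoD against GFP gave -1.16 ± 0.31 (edgeR adjusted p = 0.0166), which was lost without the 2x library (adjusted p = 0.175), and against 1x GFP -1.64 ± 0.34 (edgeR adjusted p = 0.00996).

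Chac1, an enzyme that breaks down glutathione, was at 16.4, 15.4, 12.7 and 11.6 CPM along the series, 22.8 CPM with 1x GFP and 7.98 CPM without virus. It was at 10.9 and 7.004 CPM with 1x and 2x MyoD and at 13.7 and 11.97 CPM with 1x and 2x Myf5. Both MyoD libraries were again below all GFP libraries (-0.78 ± 0.28, edgeR adjusted p = 0.0476). That call failed in 5 of 9 fits without 1 library and in 3 of 4 other settings, while the call against 1x GFP (-1.34 ± 0.25, edgeR adjusted p = 0.00715) held in all 8 fits without 1 library.

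Asns, asparagine synthetase, fell from 113 through 98.1 and 89.0 to 70.8 CPM along the series, with a slope of -0.21 ± 0.02 (edgeR adjusted p = 2.56e-06). It was at 150 CPM with 1x GFP, 62.9 CPM without virus, 82.6 and 57.0 CPM with 1x and 2x MyoD and 96.7 and 84.0 CPM with 1x and 2x Myf5. The MyoD libraries overlapped the GFP range, and the test against the 5 GFP libraries did not pass (-0.54 ± 0.27, edgeR adjusted p = 0.136). Against 1x GFP it did (-1.10 ± 0.25, edgeR adjusted p = 0.0142).

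Psat1, the aminotransferase of serine synthesis, was at 144, 120, 119 and 96.6 CPM in the MOI series and at 208 to 262 CPM in each of the other 6 libraries of the first table. It was at 235 CPM with 1x GFP, 234 CPM without virus, 234 and 262 CPM with 1x and 2x MyoD and 208 and 232 CPM with 1x and 2x Myf5. MyoD against the 5 GFP libraries gave a rise of 0.84 ± 0.29 (edgeR adjusted p = 0.0451), and against 1x GFP the value was 0.09 ± 0.19 (edgeR adjusted p = 0.758). The rise passed in only 1 of 9 fits without 1 library. The MOI series itself was lower than 1x GFP by -1.02 ± 0.16 (edgeR adjusted p = 0.00477), which held in all 8 such fits. The 4 MOI libraries are also the least deeply sequenced of the first table, at 17.9 to 22.4 M counts, and the part of depth in these values was not tested. In the second table Psat1 was at 137 and 138 CPM with Chimera and second-batch MyoD. Psat1 counts were not whole in 1 library, so some of its reads may be shared with another locus.

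**Figure D4:**
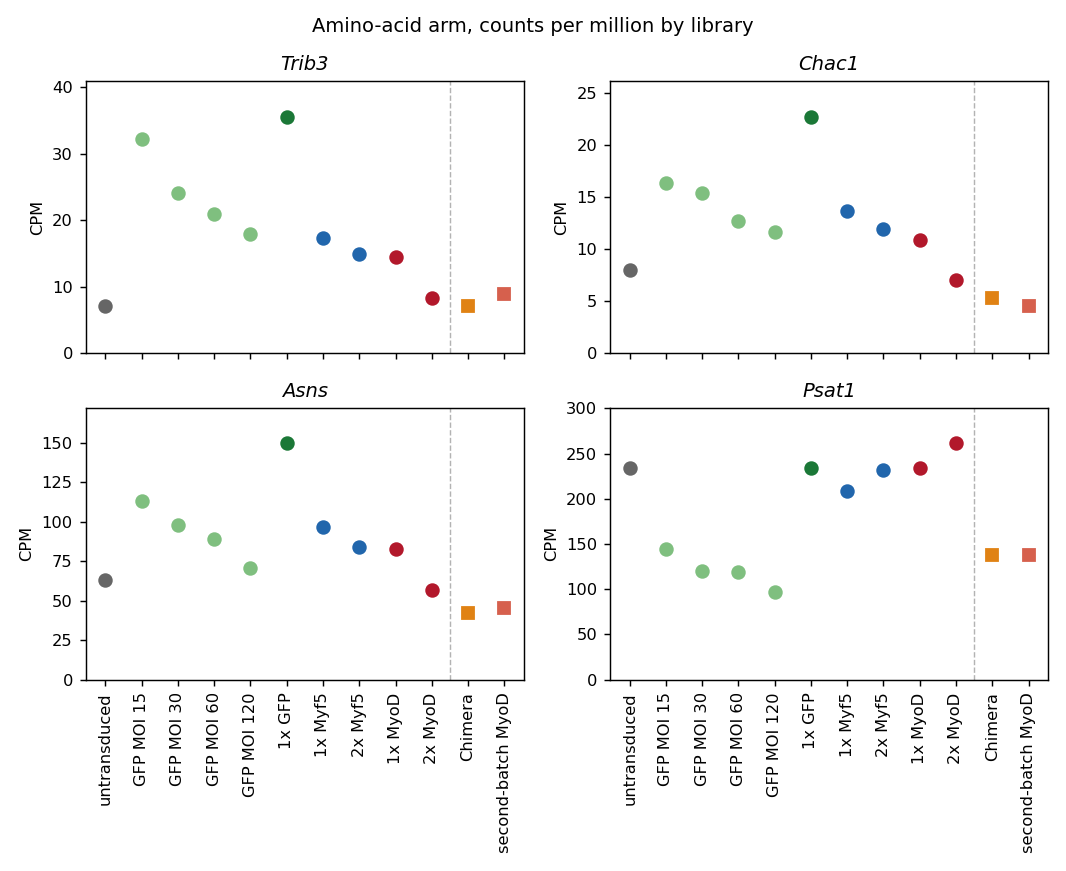
CPM of Trib3, Chac1, Asns and Psat1 in each of the 12 libraries, with 1 point a library and squares right of the dashed line for the second table. Trib3, Chac1 and Asns peak in 1x GFP and step down along the MOI series, whereas Psat1 is lower in the MOI series than in the other libraries of the first table.

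The 6 enzymes that supply serine, folate-bound carbon, proline and phosphoenolpyruvate were all highest in 1x GFP among the 10 libraries of the first table, and 5 were lowest in 2x MyoD. All 6 fell along the series, by 5.1% (Phgdh) to 15.6% (Mthfd2) per doubling. Without MOI 120 the slope was called for 2 of the 6, where 113 of 13295 genes fell. Mthfd2, a mitochondrial folate enzyme, was at 51.7, 39.2, 39.6 and 29.1 CPM along the series, 69.5 CPM with 1x GFP and 37.3 CPM without virus. Its slope was -0.24 ± 0.03 (edgeR adjusted p = 0.000123).

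Pck2, the mitochondrial phosphoenolpyruvate carboxykinase, was at 188, 165, 157 and 133 CPM along the series and at 242 CPM with 1x GFP. It was at 132 and 77.8 CPM with 1x and 2x MyoD, 161 and 137 CPM with 1x and 2x Myf5 and 129 CPM without virus. Both MyoD libraries were below all 5 GFP libraries, but MyoD against GFP did not pass (-0.72 ± 0.26, edgeR adjusted p = 0.0513), and against 1x GFP it did (-1.21 ± 0.26, edgeR adjusted p = 0.0122). Against 1x GFP, 5 of the 6 were lower with MyoD, where 15.4% of all genes were lower. That share belongs to the full fit, and fewer of all genes were called when 2x MyoD was left out. Without the 2x MyoD library the 5 became 3, since Shmt2 (adjusted p = 0.0901) and Aldh18a1 (adjusted p = 0.052) were no longer called by edgeR. Beside Pck2, the log2 fold change was -0.94 for Psph (phosphoserine phosphatase), -0.71 for Shmt2 (serine hydroxymethyltransferase), -0.70 for Aldh18a1 (proline synthesis) and -0.63 for Phgdh (the first enzyme of serine synthesis). Mthfd2 at -0.68 did not pass (edgeR adjusted p = 0.0723). None of the 6 was called by edgeR against the 5 GFP libraries, though DESeq2 called 2 lower. An unadjusted p under 0.05 was found there for 3 of the 6 and for 7163 of 13825 genes.

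Among the transporters, Slc7a11, the cystine importer, separated the factor and untransduced libraries from GFP. It ranged from 48.2 to 58.1 CPM over the 5 GFP libraries, and was at 36.3 and 27.2 CPM with 1x and 2x MyoD, 39.6 and 35.3 CPM with 1x and 2x Myf5 and 26.4 CPM without virus. No library of these groups overlapped GFP. The log2 fold change was -0.69 ± 0.12 with MyoD (edgeR adjusted p = 0.00225) and -0.97 ± 0.16 without virus (edgeR adjusted p = 0.00829), both held in all 9 fits without 1 library. Myf5 gave -0.47 ± 0.12 (edgeR adjusted p = 0.0483), which held in 3 of 9.

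In the second table Slc7a11 was at 60.4 CPM with Chimera and 64.9 CPM with second-batch MyoD. Its counts were not whole in 9 libraries of the first table, so reads shared with other loci could have been counted differently there, and its values are uncertain. Slc3a2, the heavy chain that pairs with both other transporters, was not whole in all 10 and shares this limit. Slc7a5, a carrier of large neutral amino acids, was at 155 CPM with 1x GFP and between 74.0 and 108 CPM in the other 9 libraries. With MyoD its sign depended on the control, being 0.01 ± 0.24 against GFP (edgeR adjusted p = 0.97) and -0.61 ± 0.14 against 1x GFP (edgeR adjusted p = 0.016). All 3 transporters were lower with MyoD when set against 1x GFP, where 15.4% of all genes were.

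In the ER chaperone arm none of the slopes along the MOI series passed, and 6 of the 15 genes had their highest level of the first table in the untransduced library. With MyoD 10 of 15 were lower than in the 5 GFP libraries and Edem1 was higher, with a median log2 fold change of -0.34, where 20.9% of all genes were lower and 21.4% higher. Against 1x GFP 6 of 15 were lower, where 15.4% of all genes were. Without the 2x MyoD library these counts were 3 and 3, without 1x MyoD 6 of 15 were lower than in GFP, and without the filter on low counts 3 of 15 than in 1x GFP. Both MyoD libraries lay below all 5 GFP libraries for 10 of the 15. No share over all genes is given for this count, so it is not read as particular to the arm. In the refits just named fewer of all genes were called lower too, so 20.9% and 15.4% do not serve as their background.

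Hspa5 (BiP), the main ER chaperone of the Hsp70 family, was at 459, 479, 466 and 479 CPM along the series, 399 CPM with 1x GFP and 490 CPM without virus. It was at 330 and 322 CPM with 1x and 2x MyoD and at 362 and 398 CPM with 1x and 2x Myf5. The MyoD libraries were the lowest pair. The difference from GFP was -0.43 ± 0.07 (edgeR adjusted p = 0.00241), and from 1x GFP -0.28 ± 0.07 (edgeR adjusted p = 0.0229), and both held in every fit without 1 library, 9 and 8 in number.

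Pdia6, a protein disulfide isomerase that also restrains ER stress sensors, was nearly constant over the GFP libraries, from 191 to 198 CPM. It was at 141 and 131 CPM with 1x and 2x MyoD, at 159 and 165 CPM with 1x and 2x Myf5 and at 262 CPM without virus. None of these groups overlapped. MyoD was lower than GFP (-0.47 ± 0.05, edgeR adjusted p = 0.000314) and than 1x GFP (-0.48 ± 0.06, edgeR adjusted p = 0.00279), and the untransduced library was higher than GFP (0.48 ± 0.06, edgeR adjusted p = 0.00307). These 3 calls held in every fit without 1 library. Myf5 against GFP gave -0.23 ± 0.05 (edgeR adjusted p = 0.0317), which held in 3 of 9.

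Hsp90b1 (GRP94), the ER member of the Hsp90 family, was at 1027 to 1065 CPM in the MOI series, 834 CPM with 1x GFP and 1299 CPM without virus. It was at 710 and 692 CPM with 1x and 2x MyoD and 757 and 855 CPM with 1x and 2x Myf5. MyoD against GFP gave -0.46 ± 0.09 (edgeR adjusted p = 0.00465), which was lost without the 2x library (adjusted p = 0.0528). Against 1x GFP alone the change with MyoD was -0.24 ± 0.08, and the edgeR adjusted p of 0.05 was not under the threshold.

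Calr (calreticulin), the lectin chaperone that binds calcium in the ER, was also highest without virus and lowest with MyoD, at 650 to 678 CPM in the series, 537 CPM with 1x GFP, 887 CPM without virus, 479 and 480 CPM with 1x and 2x MyoD and 526 and 598 CPM with 1x and 2x Myf5. The untransduced library was higher than GFP (0.52 ± 0.11, edgeR adjusted p = 0.0247, lost without the MOI 15, 30 or 60 library). Against GFP MyoD was lower (-0.36 ± 0.09, edgeR adjusted p = 0.0124), which was lost without either MyoD library. Canx (calnexin), its membrane-bound partner, ranged from 527 to 603 CPM over the 10 libraries, and none of its differences passed.

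**Figure D5:**
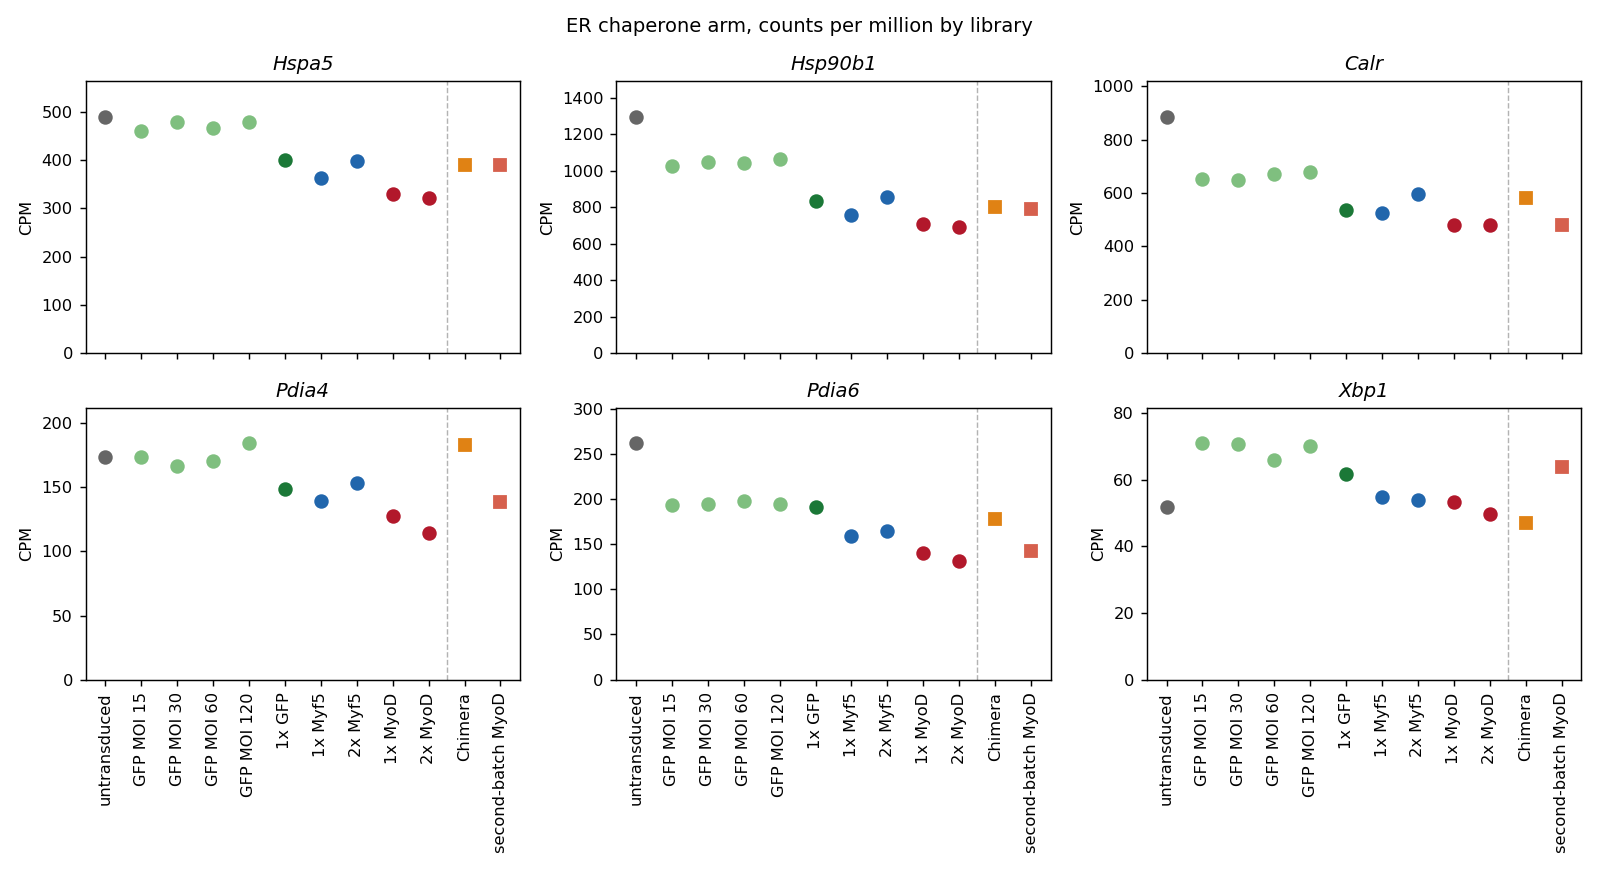
CPM of 6 ER arm genes in each of the 12 libraries, with 1 point a library and squares right of the dashed line for the second table. Hsp90b1, Calr and Pdia6 are highest in the untransduced library, and both MyoD libraries are lowest of the first table for all but Xbp1, where 1x MyoD lies above the untransduced library.

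Pdia4, another disulfide isomerase, was at 167 to 185 CPM in the series, 149 CPM with 1x GFP and 128 and 114 CPM with 1x and 2x MyoD (-0.43 ± 0.08 against GFP, edgeR adjusted p = 0.00373, lost without the 2x library). Xbp1, whose spliced mRNA encodes the factor that raises many genes of this arm, was at 66.1 to 71.1 CPM in the series, 61.8 CPM with 1x GFP, 53.2 and 49.9 CPM with 1x and 2x MyoD, 54.9 and 54.0 CPM with 1x and 2x Myf5 and 52.0 CPM without virus. In the first table all libraries without GFP virus lay below all GFP libraries. Gene counts do not tell spliced from unspliced Xbp1 mRNA. MyoD against GFP gave -0.35 ± 0.06 (edgeR adjusted p = 0.00269), held in all 9 fits without 1 library. Myf5 against GFP (-0.29 ± 0.06, edgeR adjusted p = 0.0304) and the untransduced library against GFP (-0.34 ± 0.08, edgeR adjusted p = 0.0352) each held in 3 of 9.

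Of the remaining genes of the arm, Herpud1 and Sel1l, parts of the complex that extracts misfolded proteins for degradation, were lower with MyoD by 0.25 and 0.20 against GFP (log2 fold changes of -0.25 and -0.20) and by 0.42 and 0.22 against 1x GFP (-0.42 and -0.22). For Herpud1 the edgeR adjusted p was 0.0413 against GFP, held in 2 of 9 fits without 1 library and 1 of 4 other settings, and 0.00836 against 1x GFP, held in all 8. For Sel1l it was 0.0224 against GFP, held in 6 of 9, and 0.0491 against 1x GFP, held in 2 of 8 and in 1 of 3 other settings. Edem1, a lectin that hands glycoproteins to degradation, was at 68.1 to 74.2 CPM in GFP and 79.1 and 81.4 CPM with 1x and 2x MyoD (0.20 ± 0.06, edgeR adjusted p = 0.0216, lost without the 2x MyoD or the MOI 60 library). The Hsp40 cochaperones Dnajb9 and Dnajc3 were lower with MyoD than in GFP, at -0.34 and -0.27, and did not pass against 1x GFP. Dnajb9 kept its call in 2 of 9 fits without 1 library and had counts that were not whole in 4 libraries. The secreted or soluble ER proteins Manf, Creld2 and Sdf2l1 were called in no comparison with MyoD, Myf5 or the untransduced library. Sdf2l1 was higher in the MOI series, at 8.71 to 12.2 CPM, than in 1x GFP, at 5.36 CPM (0.86 ± 0.22, edgeR adjusted p = 0.0249, lost without MOI 30).

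Over both doses, 27 of the 35 members were lower at 2x than at 1x MyoD, and 16 at 2x than at 1x Myf5. Each factor has 1 library a dose, so this count has no test within a factor. The lowest value of the 10 libraries was in 2x MyoD for 18 members and in the untransduced library for 8. The highest was in 1x GFP for 16 members, in the MOI series for 11 and in the untransduced library for 6. No share over all genes is given for these counts or for the like counts by role above. They are therefore not read as particular to the members.

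In the second table the Chimera and second-batch MyoD libraries were compared with no test, as 1 library each, over 13412 genes with at least 50 counts. Of the 34 members that reached 50 counts, 1 differed by more than 1.5-fold, against 7.11% of genes lower and 7.31% higher. It was Shmt2, at 55.5 CPM with Chimera and 96.3 CPM with MyoD, a ratio of 0.576 (95% interval 0.539 to 0.616, exact binomial, counting error only). Hspa5 was at 389 CPM in both, and Trib3 at 7.10 and 8.91 CPM. Atf3 had too few counts to enter, at 1.24 and 0.760 CPM. Atf5 was at 106 CPM and Asns at 45.6 CPM with second-batch MyoD. The tables were normalized separately, and mitochondrial genes, with 4.05% and 4.18% of the counts, appear only in the second, so no comparison was made across them.

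Genes around the members were counted from lists of the same pathways. Over all genes 21.4% were higher and 20.9% lower with MyoD than in GFP, 15.1% higher and 15.4% lower than in 1x GFP, and 3.42% fell along the MOI series. Of 17 stress sensors and factors of the eIF2 cycle, 8 were higher and 1 lower with MyoD than in GFP, and 2 and none without the 2x MyoD library. Eif2ak1 (HRI), the haem-regulated eIF2 kinase, was at 105 and 154 CPM with 1x and 2x MyoD against 64.0 to 73.2 CPM in GFP (0.97 ± 0.14, edgeR adjusted p = 0.000915). Atf6, the ER-anchored factor that raises chaperones, was at 104 and 148 CPM against 65.7 to 73.5 CPM (0.90 ± 0.13, edgeR adjusted p = 0.00102), and its mRNA was thus higher in the comparison in which 10 ER arm members were lower. Eif2b3, a subunit of the exchange factor that restores eIF2, was also higher (0.50 ± 0.10, edgeR adjusted p = 0.00427). All 3 passed against 1x GFP too. Eif2ak2 (PKR), the kinase that senses double-stranded RNA and is induced by interferon, rose along the MOI series from 197 through 246 and 257 to 318 CPM (slope 0.22 ± 0.02, edgeR adjusted p = 2.35e-06) and was at 76.7 CPM with 1x GFP and 70.7 CPM without virus. Eif2ak2 was chosen after its values were seen.

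Of 13 aminoacyl-tRNA synthetases, which charge tRNAs and are Atf4 targets, 7 fell along the series and none rose, and 5 were lower with MyoD than in 1x GFP. Without MOI 120 the falling slopes were 4, and without 2x MyoD the lower genes were 2. Against the 5 GFP libraries none was called by edgeR or DESeq2. An unadjusted p under 0.05 was found for 1 of the 13 and for 7163 of 13825 genes. Of 20 other Atf4 targets 17 were tested, and 9 fell along the series (3 without MOI 120 and 5 by DESeq2). With MyoD against GFP 3 of the 17 were lower, a share near the 20.9% of all genes (none without 2x MyoD, 5 by DESeq2), among them Slc1a5, a neutral amino acid carrier (-0.74 ± 0.14, edgeR adjusted p = 0.00404), and Cebpg, a partner of Atf4 on DNA (-0.59 ± 0.12, edgeR adjusted p = 0.004). The 1 that was higher was Gpt2, a mitochondrial alanine aminotransferase, at 175 and 263 CPM with 1x and 2x MyoD against 65.7 to 90.7 CPM in GFP (1.52 ± 0.17, edgeR adjusted p = 0.000366).

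Of 23 other ER folding and degradation genes tested, 9 were lower and 2 higher with MyoD than in GFP, and none and 1 without the 2x MyoD library. Pdia3 was among the lower (-0.37 ± 0.07, edgeR adjusted p = 0.00384), and the degradation genes Derl1 (0.48 ± 0.09, edgeR adjusted p = 0.00344) and Edem3 (0.68 ± 0.14, edgeR adjusted p = 0.00466) were the higher pair. None of the 23 was called along the MOI series by edgeR or DESeq2. An unadjusted p under 0.05 was found for 7 of them and for 2679 of 13383 genes. Of 12 heat shock genes tested, whose products work mainly in the cytosol or mitochondria, 5 were higher and 1 lower with MyoD than in GFP (3 and 1 without 2x MyoD), led by Hsp90ab1, the main cytosolic Hsp90 (0.93 ± 0.13, edgeR adjusted p = 0.000835), and the mitochondrial chaperonins Hspe1 (0.55 ± 0.10, edgeR adjusted p = 0.00263) and Hspd1 (0.44 ± 0.08, edgeR adjusted p = 0.00287).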

How the data were processed

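Poly(A)-selected RNA of 12 fibroblast cultures was measured as reads per gene. The submitters' processing notes name CASAVA 1.8.2, TopHat2 2.0.8 and the build mm9; the counter and annotation were not given in the sources used here. Expected counts, many with fractions, fill the first table as deposited and were rounded, and the second has whole counts as deposited. IDs were paired with symbols through the reference name table.

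The members and all lists were chosen with earlier results of these data known. CPM was computed from all counts of a library. In R 4.3.3, edgeR 4.0.16 was fitted with TMM factors to genes that reached a CPM of 1 in 2 or more libraries, in 4 designs: the groups (6 residual degrees of freedom), the groups with the MOI series apart (5), a slope on log2 MOI (2) and a 2x dose term (4). Quasi-likelihood p-values were two-sided and Benjamini-Hochberg adjusted over all genes, and SEs were derived from the F statistic. Groups of 1 library took their spread from the others. The tables were not fitted together. The scripts were tested on simulated data. Alternatives were RLE size factors, no filter, DESeq2 1.42.0, linear MOI and leaving out each library. All members are named, and of each pathway list the 3 genes with the smallest p among those called in MyoD against GFP. Printed promoters are the amino-acid arm and the 3 ER arm genes with an element and the smallest such p.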

Additional observations from a re-analysis of the deposited data

Results flagged for a closer look

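Within the 5 GFP libraries, 4 of the 35 members had 1 library far from the others by Dixon's test at the 95% level, and in each it was 1x GFP. Chance flags about 1 in 20 such groups if the libraries are alike, whereas these differ in virus dose and depth. No share of all genes flagged is given, so the count is not read as particular to the members. Ppp1r15a was at 30.1 CPM in 1x GFP, and the MOI series lay between 21.1 and 23.0 CPM. The 3 chaperones were low in 1x GFP instead: Hspa5 was at 399 CPM with the others from 459 to 479 CPM, Hsp90b1 at 834 CPM with the others from 1027 to 1065 CPM, and Calr at 537 CPM with the others from 650 to 678 CPM. The 1x GFP library also differs from the series in depth, with 81.5 M (mega) counts against 17.9 to 22.4 M, and the part of depth in these values was not tested.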

How the results depend on the processing

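Of 6186 values of single genes recomputed under the alternatives, 5644 kept their side of the threshold, 254 came to pass it and 288 no longer passed. Among the 5644, 117 that were called in neither fit changed sign, and no called value did. Counts of members that moved by over 1.5 times did so as follows. With DESeq2, 1 member was higher in MyoD against GFP, 7 were lower in Myf5 against GFP, 3 lower in MyoD against Myf5, 4 higher and 10 lower in untransduced against GFP, 9 lower in Myf5 against 1x GFP, 5 higher and 16 lower in untransduced against 1x GFP, 1 rose along the MOI series and 1 was lower at the 2x dose. With only the compared groups in the fit, 1 was higher in MyoD against GFP. With a 2x dose term, 2 were lower in MyoD against Myf5. Without a filter, 0 were lower in Myf5 against GFP and 1 was higher in the MOI series against 1x GFP. At 2-fold, 0 members differed between Chimera and second-batch MyoD. The calls over all genes moved as well. With DESeq2, 1084 of 13825 genes were lower in Myf5 against GFP and 587 in MyoD against Myf5, where edgeR called 316 and 179. Along the MOI series 288 genes rose by DESeq2 and 544 by edgeR. These shifts, and those on leaving out 1 library, are therefore not read as particular to the members. Their cause was not tested. Leaving out 1 library gave 0 to 3 higher and 6 to 20 lower in MyoD against GFP, 0 to 2 and 0 to 10 in Myf5 against GFP, 0 and 0 to 5 in MyoD against Myf5, 1 to 5 and 3 to 11 in untransduced against GFP, 0 and 16 to 23 in MyoD against 1x GFP, 0 and 0 to 8 in Myf5 against 1x GFP, 3 to 4 and 5 to 14 in untransduced against 1x GFP, 1 to 3 and 4 to 13 in the MOI series against 1x GFP, 1 to 3 rising and 7 to 14 falling along the MOI series, and 0 and 0 to 2 for the dose. Where a group was left with 1 library, it was assumed to vary like the others. Depth limits Atf3, with 34 to 94 counts in the MOI series.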
